A study of Mus musculus with 10 samples.

Results

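The endoplasmic reticulum chaperones and the genes of the unfolded protein response described here are 10 genes chosen by symbol, Hspa5, Hsp90b1, Pdia4, Pdia6, Calr, Dnajb9, Sdf2l1, Hyou1, Xbp1 and Herpud1, out of 13299 genes in the table of normalized counts. All 10 were in the table and all 10 passed the filter on low values, as did 13236 genes in total. Of these 10 genes, Hsp90b1 passed the test between genotypes and was higher in Rragc S74N/+ kidneys, by 1.54-fold. The other 9 did not pass. On the log scale 8 of the 10 had a lower mean in Rragc S74N/+ kidneys, as did 51.3% of all tested genes, and 6 of 10 did after scaling to equal library totals. Of the 8, Pdia4 and Pdia6 were close to no difference, with log2 fold changes of -0.00049 and -0.019. The values came from 3′ mRNA sequencing of whole kidneys from 5 Rragc S74N/+ and 5 Rragc +/+ mice aged 1.5 years, which were compared to learn how the transcriptome of old kidneys differs between the genotypes. Rragc encodes RagC, a small GTPase that signals nutrient sufficiency to the kinase complex mTORC1. Rragc S74N/+ mice carry, in all their cells, 1 knocked-in allele with a serine-to-asparagine change that mimics the active, GDP-bound form of the protein, and Rragc +/+ mice are the wild-type controls. The mice were on a C57BL/6 background, neither group is described as having been treated, and the labels do not give the sex of these animals.

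The endoplasmic reticulum is where secreted and membrane proteins enter the secretory pathway, gain disulfide bonds and N-glycans, and fold with the help of chaperones. When unfolded proteins build up in its lumen, the sensors IRE1 (gene Ern1), PERK (gene Eif2ak3) and ATF6 start the unfolded protein response: IRE1 splices the Xbp1 mRNA, PERK slows translation and favours the translation of Atf4, and ATF6 is cut in the Golgi apparatus to release a transcription factor. XBP1 and ATF6 then raise the transcription of chaperones, folding enzymes and the machinery that sends misfolded proteins for degradation. In the kidney, tubule cells make large amounts of transporters and receptors, so that these chaperones are expressed there without any added stress.

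ATF6, with the CCAAT-binding factor NF-Y, binds the endoplasmic reticulum stress element, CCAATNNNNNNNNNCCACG, which is the sequence feature that many of these genes are known to share. It was searched on both strands of the RefSeq windows from 250 bases before to 50 bases after the start of each gene (build GRCm38.p6, not the GRCm39 build used for the counts), and windows were found for 9 of the 10 genes, all but Hyou1. The exact element was present in 4 of the 9 windows, against 0.119% of the 32851 windows of all genes. The 10 genes were chosen as chaperones and targets of XBP1 and ATF6. An excess of this element or its other forms was therefore built into the choice and is given as a description. The 250 bases before the start are printed 5′ to 3′ on the strand of the gene for these 4 genes, and for Sdf2l1, which has no such element and whose log2 fold change was the lowest of the 10 in limma on all 10 libraries. Capitals mark the CCAAT and CCACG ends of each element, or CGTGG and ATTGG where it lies on the opposite strand.
Hspa5 (chr2:34771840-34772089, plus strand): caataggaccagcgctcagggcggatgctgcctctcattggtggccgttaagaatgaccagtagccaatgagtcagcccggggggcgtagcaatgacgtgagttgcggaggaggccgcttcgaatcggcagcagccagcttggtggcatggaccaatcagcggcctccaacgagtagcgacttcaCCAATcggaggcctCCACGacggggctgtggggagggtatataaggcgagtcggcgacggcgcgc
Hsp90b1 (chr10:86705445-86705694, minus strand): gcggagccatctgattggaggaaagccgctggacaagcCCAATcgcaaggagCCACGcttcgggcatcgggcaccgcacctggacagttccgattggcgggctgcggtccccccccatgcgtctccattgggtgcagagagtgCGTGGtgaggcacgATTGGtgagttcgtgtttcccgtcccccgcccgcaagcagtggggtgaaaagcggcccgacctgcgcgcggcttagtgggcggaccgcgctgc
Pdia6 (chr12:17266339-17266588, plus strand): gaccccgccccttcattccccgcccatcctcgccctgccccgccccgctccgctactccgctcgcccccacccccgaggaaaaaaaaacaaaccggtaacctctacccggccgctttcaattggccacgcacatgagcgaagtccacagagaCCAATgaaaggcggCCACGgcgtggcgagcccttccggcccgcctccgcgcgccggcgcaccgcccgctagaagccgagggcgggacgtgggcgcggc
Calr (chr8:84846932-84847181, minus strand): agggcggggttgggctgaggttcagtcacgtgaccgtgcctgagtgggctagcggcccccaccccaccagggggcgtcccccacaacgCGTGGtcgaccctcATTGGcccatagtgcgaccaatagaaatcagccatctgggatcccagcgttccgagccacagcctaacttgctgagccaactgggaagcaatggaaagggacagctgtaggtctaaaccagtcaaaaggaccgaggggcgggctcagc
Sdf2l1 (chr16:17132384-17132633, minus strand): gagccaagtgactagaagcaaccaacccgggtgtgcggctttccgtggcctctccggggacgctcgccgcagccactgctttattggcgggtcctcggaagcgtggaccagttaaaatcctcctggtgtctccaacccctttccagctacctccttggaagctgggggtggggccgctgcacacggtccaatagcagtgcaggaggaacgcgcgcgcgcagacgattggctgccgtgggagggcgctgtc

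The 5 copies of the element, each read in its own direction with the spacer in lower case, show how they differ between the 4 genes. Positions are counted from the start, with -1 the base just before it.
Hspa5, -65 to -47: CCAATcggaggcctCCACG
Hsp90b1, -212 to -194: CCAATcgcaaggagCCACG
Hsp90b1, -107 to -89 on the opposite strand: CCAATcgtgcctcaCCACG
Pdia6, -98 to -80: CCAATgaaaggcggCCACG
Calr, -162 to -144 on the opposite strand: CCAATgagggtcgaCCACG
Among the 9 windows, that of Hsp90b1 was the only one with 2 copies. A form without the last base, CCAATNNNNNNNNNCCAC, was also present in Pdia4 and Herpud1, giving 6 of 9 windows against 0.365% of all windows. Herpud1 held the second form of the element, ATTGG and CCACG parted by 1 base, as ATTGGgCCACG at -52 to -42, and this form was in 0.0365% of all windows. The element to which XBP1 binds, searched as TGACGTGG or TGACGTGA, was found in Hspa5 alone of the 9, at -157 to -150, against 1.12% of all windows. The short CCACG end of the stress element, counted wherever it occurs and so also inside the longer forms, was in 8 of 9 windows and in 32.8% of all windows, and Xbp1 was the exception. The ATF4 element, TGATGNAAT, was in 0 of 9 windows and in 0.965% of all windows. A match describes the letters in these windows and does not show that a factor was bound there in these kidneys.

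Across the series, the depth was 4488493 to 5797251 reads in the 8 libraries whose whole reads could be recovered from the normalized counts, and over these libraries Sdf2l1 had 20 to 43 reads and Dnajb9 39 to 65, the lowest of the 10 genes, while Hspa5 had 1641 to 2544. The 10 genes together took 0.124% to 0.152% of the normalized counts of a Rragc +/+ library and 0.139% to 0.165% of those of a Rragc S74N/+ library, and their sums overlapped, from 6282 to 7607 against 6546 to 7854. The knocked-in gene had 146 ± 42.7 normalized counts in wild-type and 124 ± 26.4 in Rragc S74N/+ kidneys (SD, n = 5 each; limma, adjusted p = 0.51), and counts at the 3′ end do not show the allele. The libraries Rragc S74N/+ replicate 1 and Rragc +/+ replicate 2 were at an extreme more often than the others, over all tested genes as well as in this pathway. Shares were taken over 142 tested genes that are members or belong to the pathway lists below. Rragc S74N/+ replicate 1 was the lowest of the 10 samples in 53 (37.3%, against 24% over all tested genes). It was the highest in 26 (18.3%, against 20.4%). Rragc +/+ replicate 2 was the highest in 40 (28.2%, against 15.6% over all tested genes) and the lowest in 20 (14.1%, against 13.3%). Nothing in the labels places mice in litters or batches. The limma p-values set a difference against the spread between these animals, with the variance of each gene moderated toward a trend over all tested genes.

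Among the chaperones that hold unfolded chains, Hspa5 encodes BiP, the Hsp70 of the lumen, which also keeps the stress sensors inactive, and Hsp90b1 encodes GRP94, the Hsp90 of the lumen, known for folding integrins and Toll-like receptors. Normalized counts of Hsp90b1 were 1079.6, 851, 1048, 989 and 1343 in Rragc +/+ replicates 1 to 5. In Rragc S74N/+ replicates 1 to 5 they were 1933, 1482, 1183, 1866 and 1735. Thus 4 of the 5 Rragc S74N/+ kidneys lay above the highest Rragc +/+ kidney, and replicate 3 lay below Rragc +/+ replicate 5 and above the other 4. The means were 1062 ± 179.9 (SD, n = 5) and 1639.8 ± 308 (SD, n = 5), the log2 fold change was 0.62 ± 0.15 (SE; 95% interval 0.31 to 0.93), and the adjusted p was 0.0227 (limma on log2 of the normalized count plus 1, Benjamini-Hochberg adjustment over all tested genes). In whole tissue, more or fewer cells of a type cannot be told apart from more or less RNA per cell. Hsp90b1 was 1 of 10 genes past the threshold of 0.05, where 6.03% of all tested genes were past it, 3.45% being higher in Rragc S74N/+ kidneys and 2.58% lower. The call did not hold without Rragc +/+ replicate 1 (adjusted p = 0.056), 2 (0.074) or 4 (0.058), or without Rragc S74N/+ replicate 4 (0.057) or 5 (0.062), although the log2 fold change stayed between 0.54 and 0.73 over the 10 fits that left out 1 library. On the recovered reads of 8 libraries the log2 fold change was 0.83 in edgeR (adjusted p = 0.00484) and 0.82 in DESeq2 (adjusted p = 1.155e-06). These 8 left out Rragc +/+ replicate 5, the highest of its group for Hsp90b1, and Rragc S74N/+ replicate 3, the lowest of its group. Limma on the same 8 libraries also gave 0.82 (adjusted p = 0.00424), against 0.62 on all 10. On all 10 libraries, limma without the variance trend gave an adjusted p of 0.079.

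Hspa5 had normalized counts of 2255, 1707, 1658, 1498 and 2095 in Rragc +/+ replicates 1 to 5. In Rragc S74N/+ kidneys the counts were 2015, 2156, 2115, 2203 and 2472. Rragc +/+ replicates 2, 3 and 4 lay below every Rragc S74N/+ kidney, while Rragc +/+ replicates 1 and 5 lay within their range. The means of Hspa5 were 1843 ± 318 (SD, n = 5) and 2192 ± 171 (SD, n = 5). The log2 fold change of 0.26 ± 0.12 (SE; 95% interval 0.0054 to 0.52) did not pass (limma, adjusted p = 0.19).

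**Figure D1:**
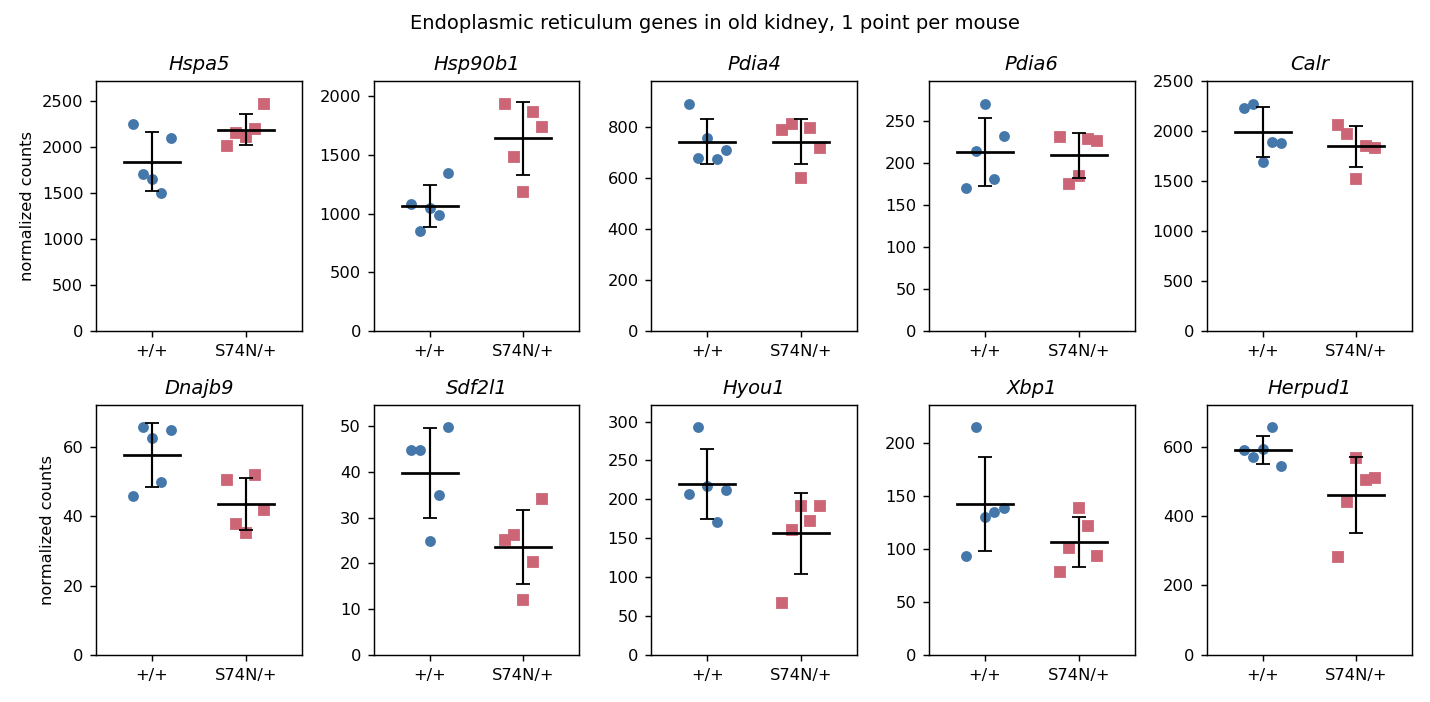
Normalized counts (vertical axes, each from 0) of the 10 genes in Rragc +/+ (circles) and Rragc S74N/+ (squares) kidneys, 1 point per mouse, with the mean and SD of each group (n = 5). Hsp90b1 has 4 of 5 Rragc S74N/+ kidneys above the highest Rragc +/+ kidney, and the groups overlap for all 10 genes.

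Disulfide bonds of the newly made chains are formed and reshuffled by protein disulfide isomerases, of which Pdia4 (ERp72) and Pdia6 (P5) belong to the 10 genes. Pdia4 had 892, 678, 759, 676 and 712 normalized counts in Rragc +/+ replicates 1 to 5 and 789.9, 812, 601, 796 and 719 in Rragc S74N/+ replicates 1 to 5. For Pdia6 the counts were 170.0, 214, 271, 182 and 232 against 231, 175, 185, 229 and 226. The groups of Pdia6 overlapped throughout, since each Rragc S74N/+ value fell inside the Rragc +/+ range, and for Pdia4 only Rragc S74N/+ replicate 3 fell outside it, below. The means of Pdia4 were 743 ± 89.4 (SD, n = 5) and 744 ± 87.5 (SD, n = 5), with a log2 fold change of -0.00049 and a 95% interval of -0.25 to 0.25 (limma, adjusted p = 0.999). The means of Pdia6 were 214 ± 40.3 (SD, n = 5) and 209 ± 27.0 (SD, n = 5), with a log2 fold change of -0.019 and a 95% interval of -0.33 to 0.29 (limma, adjusted p = 0.95). The sign of both values turned with the scaling to equal library totals, to 0.08 and 0.06, so that no direction can be given for either gene.

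Calr encodes calreticulin, a calcium-binding lectin chaperone that retains glycoproteins until they are folded. Its normalized counts were 2231, 2273, 1689, 1893 and 1880.4 in Rragc +/+ kidneys and 2064, 1970.5, 1519, 1849.5 and 1831 in Rragc S74N/+ kidneys, replicates 1 to 5 each. Rragc S74N/+ replicate 3 was the lowest of all 10 for Calr, as it was for Pdia4, Dnajb9 and Sdf2l1, and the other 4 lay within the Rragc +/+ range. With means of 1993 ± 250.1 (SD, n = 5) and 1847 ± 206 (SD, n = 5), the log2 fold change was -0.11 ± 0.12 (SE; 95% interval -0.36 to 0.14) and did not pass (limma, adjusted p = 0.60), and without Rragc +/+ replicate 2 it was -0.059 (adjusted p = 0.83).

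The next 3 genes encode partners of the chaperones in the lumen. Dnajb9 encodes ERdj4, a J-domain co-chaperone that brings BiP to its clients and to IRE1. It had 45.9, 65.5, 62.4, 49.8 and 64.7 normalized counts in Rragc +/+ kidneys, replicates 1 to 5. In Rragc S74N/+ kidneys it had 50.4, 37.8, 35.0, 51.9 and 41.8, so that replicates 2, 3 and 5 lay below the lowest Rragc +/+ kidney and replicates 1 and 4 lay within the Rragc +/+ range. Its means were 57.6 ± 9.15 (SD, n = 5) and 43.4 ± 7.52 (SD, n = 5), and the log2 fold change of -0.40 ± 0.19 (SE; 95% interval -0.80 to -0.0048) did not pass (limma, adjusted p = 0.19).

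Sdf2l1 encodes a luminal protein that works in a complex with the J-domain protein ERdj3. Its normalized counts were 44.7, 44.7, 25.0, 34.9 and 49.7 in Rragc +/+ replicates 1 to 5 and 25.2, 26.2, 12.0, 20.4 and 34.0 in Rragc S74N/+ replicates 1 to 5. Each Rragc +/+ kidney other than replicate 3 lay above all 5 Rragc S74N/+ kidneys. Sdf2l1 had means of 39.8 ± 9.90 (SD, n = 5) and 23.5 ± 8.10 (SD, n = 5) and a log2 fold change of -0.77 ± 0.28 (SE; 95% interval -1.37 to -0.17), which did not pass (limma, adjusted p = 0.11). This was the lowest of the 10 genes in limma on all 10 libraries, while on the 8 libraries with recovered reads Sdf2l1 had -0.48 in edgeR, -0.49 in DESeq2 and -0.47 in limma, and Hyou1 was lower, at -0.58, -0.59 and -0.66. Sdf2l1 was also the gene with the fewest reads, as given above.

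Hyou1 encodes GRP170, the nucleotide exchange factor of BiP. It had 207, 292, 217, 170.3 and 212 normalized counts in Rragc +/+ replicates 1 to 5 and 66.2, 161, 191, 172 and 191 in Rragc S74N/+ replicates 1 to 5. Each Rragc +/+ kidney other than replicate 4 lay above all 5 Rragc S74N/+ kidneys, and Rragc S74N/+ replicate 1 lay far below the rest of its group. The means of Hyou1 were 219.7 ± 44.6 (SD, n = 5) and 156 ± 52.0 (SD, n = 5), and its log2 fold change was -0.56 ± 0.25 (SE; 95% interval -1.08 to -0.039; limma, adjusted p = 0.17). Without Rragc S74N/+ replicate 1 the log2 fold change of Hyou1 was -0.28 (limma, adjusted p = 0.26).

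Xbp1 is the transcription factor of the group, and its mRNA is also abundant in plasma cells. Reads at the 3′ end of its mRNA lie away from the intron that IRE1 removes, so that the values give the total and not the spliced form. Xbp1 had 92.9, 214, 129.6, 134 and 138 normalized counts in Rragc +/+ replicates 1 to 5 and 78.3, 101, 138, 121 and 93.3 in Rragc S74N/+ replicates 1 to 5. The groups overlapped, with Rragc +/+ replicate 2 highest and Rragc S74N/+ replicate 1 lowest. Its means were 142 ± 44.3 (SD, n = 5) and 106 ± 23.5 (SD, n = 5), with a log2 fold change of -0.39 ± 0.21 (SE; 95% interval -0.82 to 0.046; limma, adjusted p = 0.25). Without Rragc +/+ replicate 2 the log2 fold change of Xbp1 was -0.23 (limma, adjusted p = 0.53).

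Herpud1 encodes a membrane protein that scaffolds the complex that exports misfolded proteins for degradation. Its normalized counts were 589.6, 570.1, 593, 655 and 543 in Rragc +/+ replicates 1 to 5 and 283, 440.0, 568, 503 and 510.1 in Rragc S74N/+ replicates 1 to 5. Rragc S74N/+ replicate 3 lay within the Rragc +/+ range and the other 4 lay below it. The means of Herpud1 were 590.2 ± 41.3 (SD, n = 5) and 461 ± 109 (SD, n = 5), and the log2 fold change of -0.39 ± 0.16 (SE; 95% interval -0.73 to -0.059) did not pass (limma, adjusted p = 0.14). Without Rragc S74N/+ replicate 1, at 283 the lowest, the log2 fold change of Herpud1 was -0.23 (limma, adjusted p = 0.21).

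**Figure D2:**
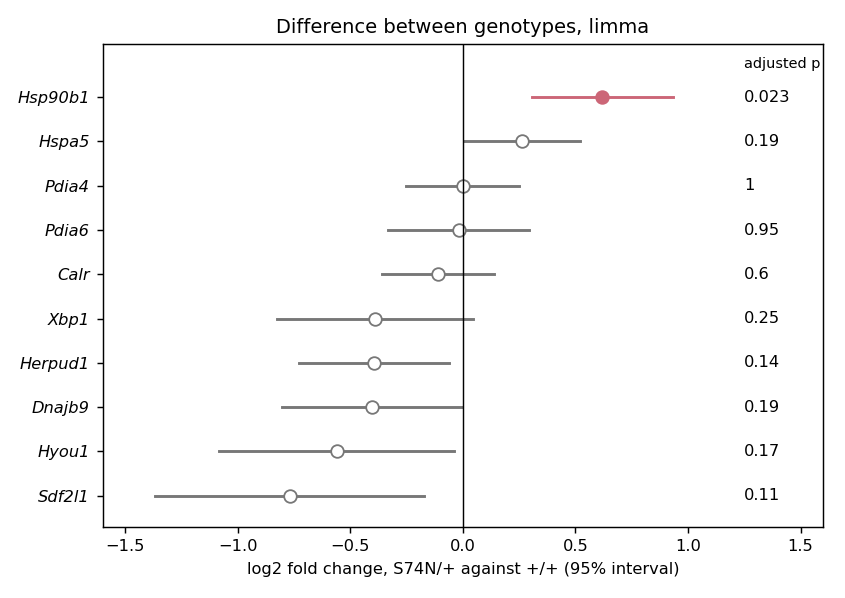
Log2 fold change of each of the 10 genes, Rragc S74N/+ against Rragc +/+ (horizontal axis; points are limma estimates, bars 95% intervals, n = 5 per group), with the adjusted p at the right. The filled point is Hsp90b1, at 0.62, the 1 gene past the threshold, and the estimates run down to -0.77 for Sdf2l1.

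The 10 genes did not share a direction. Beside Hsp90b1, which rose, 0 of 10 fell past the threshold in limma, and edgeR and DESeq2 on 8 libraries also called 1 of 10, in the higher direction. At an unadjusted p under 0.05, 6 of 10 genes were below it in limma, 2 with a higher and 4 with a lower value in Rragc S74N/+ kidneys, where 25.4% of all tested genes were below it, 12.6% higher and 12.8% lower. The median log2 fold change of the 10 was -0.25, against -0.01 over all tested genes, and with scaling to equal library totals it was -0.17 against 0.06. Leaving out Rragc +/+ replicate 2 gave -0.14, leaving out Rragc S74N/+ replicate 1 gave -0.19, and the median was -0.11 over the 9 of the 10 genes with a mean of at least 50 normalized counts. Of the 10 values 8 were negative, against 51.3% over all tested genes, with 6 of 10 negative after scaling to equal library totals and 7 of 10 after scaling to equal 75th percentiles. In 0 of 10 did the 2 groups fail to overlap, where the groups stood fully apart for 8.16% of all tested genes (4.01% with lower values in Rragc S74N/+ kidneys).

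As a description of how the genes stood to each other in 1 kidney, the normalized count of Hsp90b1 was divided by that of each other gene, which removes the scaling of the library. The ratio of Hsp90b1 to Calr was 0.543 ± 0.130 in the 5 Rragc +/+ and 0.885 ± 0.113 in the 5 Rragc S74N/+ kidneys (SD), from 0.374 to 0.714 against 0.752 to 1.01. To Pdia6 it was 5.09 ± 1.11 (SD, n = 5) against 7.80 ± 0.843 (SD, n = 5). Its ratios to Calr, Pdia6, Dnajb9 and Sdf2l1 did not overlap between the groups, while those to Hspa5, Pdia4, Hyou1, Xbp1 and Herpud1 did. The ratio to Hspa5 ranged from 0.479 to 0.660 in Rragc +/+ and from 0.559 to 0.959 in Rragc S74N/+ kidneys. No test was made of these ratios, since their choice followed the values. Hsp90b1, the numerator, was the gene that passed with a higher value. Most of the genes it was divided by had a lower mean on the log scale in Rragc S74N/+ kidneys. Separation of the groups was thus favoured by the choice of genes. How often the ratio of Hsp90b1 to any tested gene would separate the groups was not computed.

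The kidneys of 1 genotype also differed in which of the 10 genes were low. Rragc S74N/+ replicate 1 had the highest Hsp90b1 of all 10 kidneys and, at the same time, the lowest Hyou1, Xbp1 and Herpud1, with log2 differences from the Rragc +/+ mean of -1.69, -0.80 and -1.06. Rragc S74N/+ replicate 3 had the lowest Hsp90b1 of its group and was lowest of all for Pdia4, Calr, Dnajb9 and Sdf2l1, the last with a log2 difference of -1.61. Rragc S74N/+ replicates 4 and 5 each had 2 of the 10 genes below the Rragc +/+ range. After removal of the genotype means, the 45 pairs of genes had a median Pearson r of 0.077 over the 10 kidneys, from -0.70 for Pdia4 with Xbp1 to 0.83 for Pdia6 with Dnajb9, and 23 of 45 were above 0. The r of Hyou1 with Herpud1 was 0.81 with all 10 kidneys and -0.11 without Rragc S74N/+ replicate 1, so that it rested on that kidney. These r are a description over libraries that share a depth per kidney, and no p is given.

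**Figure D3:**
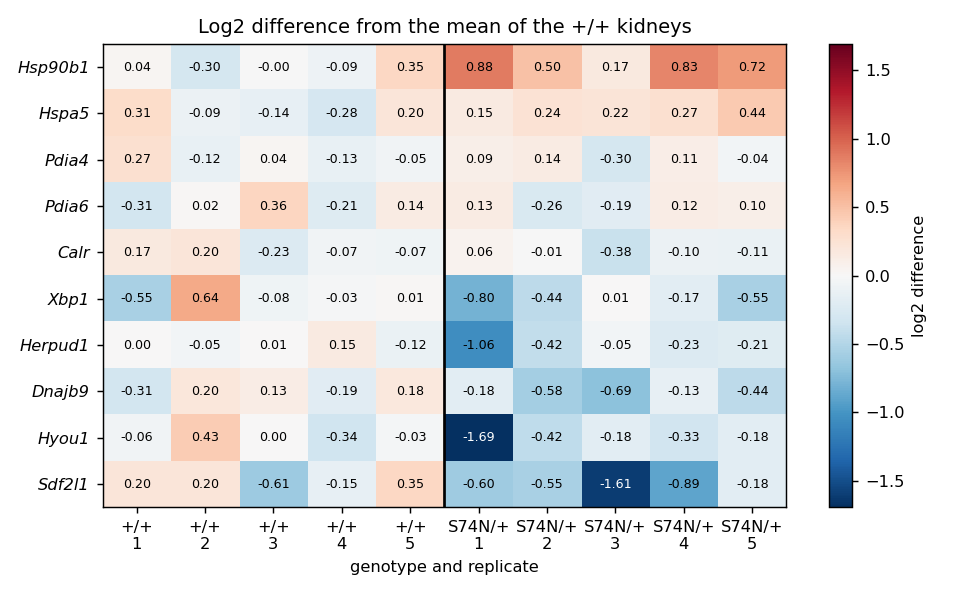
Log2 difference of each gene (rows) in each kidney (columns, genotype and replicate) from the mean of the 5 Rragc +/+ kidneys, with the colour scale in log2 units. Hsp90b1, from 0.17 to 0.88, and Hspa5, from 0.15 to 0.44, are above that mean in all 5 Rragc S74N/+ kidneys. Dnajb9, Sdf2l1, Hyou1 and Herpud1 are below it in all 5.

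The promoter groups were set beside these values. The 4 genes with the exact stress element, Hspa5, Hsp90b1, Pdia6 and Calr, had log2 fold changes from -0.11 to 0.62, with a median of 0.12, and 1 of 4 passed. The 5 genes with a window and no exact element were Pdia4, Xbp1, Dnajb9, Herpud1 and Sdf2l1. Their log2 fold changes ran from -0.77 to -0.00049, with a median of -0.39. Of these, 0 of 5 passed in limma, edgeR or DESeq2 (3 of 5 at an unadjusted p under 0.05 in limma). Pdia4 (-0.00049) and Herpud1 (-0.39) did hold the form without the last base, and Herpud1 the second form too. The 2 groups thus depend on the exact match that was asked for. Among the genes outside the 10 whose window holds the exact element, 13 of 33 were tested, the median log2 fold change was -0.02, 6 of 13 were positive and 0 of 13 passed in limma (3 of 13 at an unadjusted p under 0.05). Those that also belong to the pathway lists below were Canx (calnexin) at 0.18, Dnajc3 at 0.22, Creld2 at -0.12, Ero1b at -0.13 and Syvn1 at -0.70. They are named here after their values were seen.

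The other genes of the pathway were sorted into 7 lists by role, with 132 tested genes in total. Of these, 8 (6.06%) passed, 3 higher and 5 lower in Rragc S74N/+ kidneys, against 6.03% of all tested genes, and the median log2 fold change was -0.09. With scaling to equal library totals, 7 passed and the split turned to 6 higher and 1 lower, and only 4 of the 7 were among the 8 of the main fit. Without Rragc S74N/+ replicate 1, 8 passed, 4 higher and 4 lower, with a median of -0.06, and without Rragc +/+ replicate 2, 1 passed (higher), with a median of -0.07. The medians of the lists below moved without Rragc S74N/+ replicate 1 to -0.0057 for sensors, -0.12 for the PERK and ATF4 arm, -0.08 for other chaperones, -0.04 for degradation, -0.03 for translocation and -0.08 for vesicle export.

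Of the stress sensors, the proteases that process them and the related membrane-bound factors, 2 of 11 fell and 0 rose, with a median log2 fold change of -0.05. The 3 sensors did not pass: Ern1 had 62.2 ± 8.87 (SD, n = 5) and 51.2 ± 4.95 (SD, n = 5) normalized counts (limma, log2 fold change -0.27, adjusted p = 0.34), Atf6 120.2 ± 9.88 and 139.6 ± 15.5 (0.21, adjusted p = 0.33), and Eif2ak3 63.4 ± 25.0 and 66.0 ± 6.66 (0.15, adjusted p = 0.75, and -0.060 without Rragc +/+ replicate 1). Atf6b, the paralogue of Atf6, fell from 241 ± 33.8 to 139 ± 48.2 normalized counts (SD, n = 5 each), which on the log2 scale was -0.87 with an SE of 0.22 (limma, adjusted p = 0.032). Its values of 267, 277, 247, 220.1 and 195 in Rragc +/+ kidneys did not overlap those of 69.9, 178, 181, 108 and 155 in Rragc S74N/+ kidneys. Creb3l2, a transcription factor cut in the Golgi apparatus like ATF6 and known for its targets in secretory transport, fell from 210.5 ± 33.7 to 144 ± 22.0 normalized counts (SD, n = 5 each), and its groups did not overlap either (log2 fold change -0.54 ± 0.15 (SE), limma, adjusted p = 0.045).

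In the PERK and ATF4 arm, 1 of 11 genes rose and 0 fell, with a median of -0.05. Atf4, the transcription factor whose translation PERK favours, had 665 ± 186 and 687 ± 208 normalized counts (SD, n = 5 each; limma, log2 fold change 0.04, adjusted p = 0.92). Ddit3, which encodes CHOP and is a target of ATF4, had 85.0 ± 29.0 and 96.3 ± 50.7 (0.13, adjusted p = 0.81), with its highest value of 187 in Rragc S74N/+ replicate 1. Atf4 was also highest in that kidney, at 1043.5, and without it the log2 fold changes were -0.12 for Atf4 (adjusted p = 0.69) and -0.13 for Ddit3 (adjusted p = 0.78), so that no direction can be given for either. The gene that rose was Eif2ak2, which encodes PKR. This kinase of eIF2α senses double-stranded RNA, is induced by interferon and is not a sensor of the endoplasmic reticulum. It had 40.3, 28.1, 35.5, 41.9 and 34.8 normalized counts in Rragc +/+ and 89.5, 70.8, 60.0, 63.1 and 69.0 in Rragc S74N/+ kidneys, with no overlap, a log2 fold change of 0.94 ± 0.18 (SE) and an adjusted p of 0.00863 (limma).

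Among 29 other chaperones and folding enzymes, 1 fell and 0 rose, and the median log2 fold change was -0.13. The 1 that passed was Selenom, a selenoprotein of the lumen, which fell from 256 ± 37.5 to 170.5 ± 31.5 normalized counts (SD, n = 5 each; log2 fold change -0.59 ± 0.15 (SE), limma, adjusted p = 0.032) with 1 kidney per group in the overlap. In the degradation machinery 1 of 24 rose and 0 fell, with a median of -0.06. That gene, Vcp, encodes the ATPase that pulls misfolded proteins out of the membrane and also serves many other cell functions. Vcp rose from 1621 ± 119 to 2138 ± 67.6 normalized counts (SD, n = 5 each), with no overlap (log2 fold change 0.40 ± 0.09 (SE), limma, adjusted p = 0.0221).

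For entry into the lumen, 1 of 23 translocation and signal cleavage genes rose, 1 fell, and the median was -0.05. Both encode subunits of the signal recognition particle: Srp72 rose from 318 ± 52.7 to 443 ± 24.8 normalized counts (SD, n = 5 each; log2 fold change 0.49 ± 0.12 (SE), limma, adjusted p = 0.029) and Srp9 fell from 110.0 ± 19.9 to 73.1 ± 10.2 (log2 fold change -0.58 ± 0.17 (SE), limma, adjusted p = 0.0496). For N-glycan transfer 0 of 14 passed in limma, with 2 higher and 2 lower at an unadjusted p under 0.05, and edgeR and DESeq2 on 8 libraries called 1 each. In vesicle export and retrieval 1 of 20 fell and 0 rose, with a median of -0.16. This was Kdelr2, a receptor that returns luminal chaperones from the Golgi apparatus, which fell from 101.6 ± 11.8 to 61.6 ± 19.5 normalized counts (SD, n = 5 each; log2 fold change -0.77 ± 0.22 (SE), limma, adjusted p = 0.048), with no overlap.

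**Figure D4:**
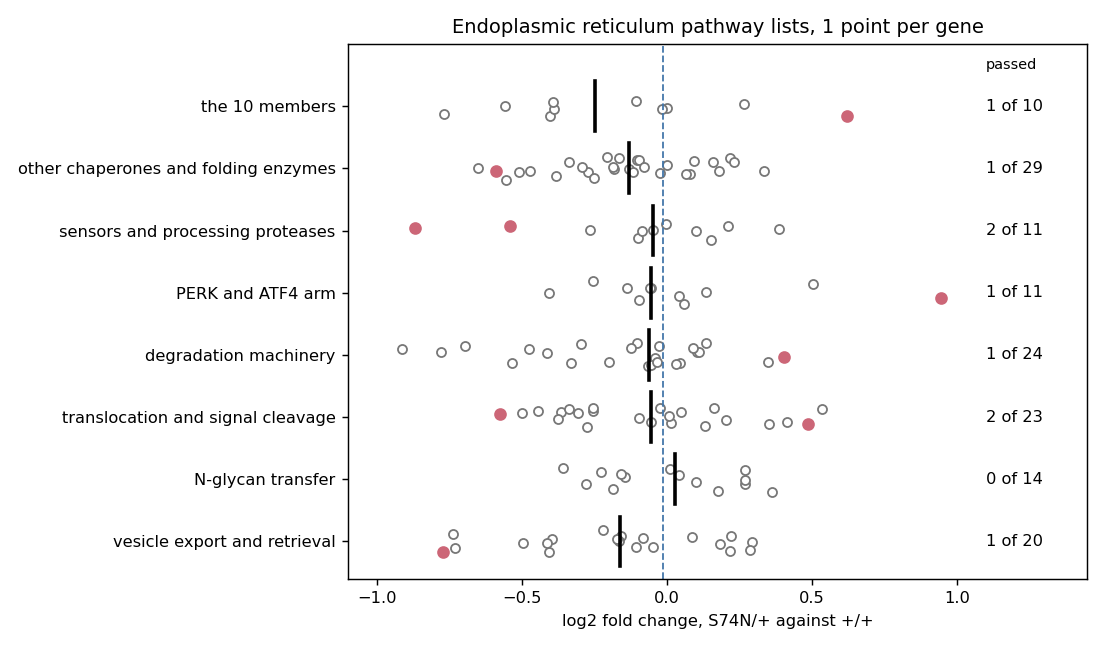
Log2 fold change, Rragc S74N/+ against Rragc +/+ (horizontal axis), of the 10 genes and of the genes of the 7 pathway lists, 1 point per gene, filled where past the threshold. Black bars are list medians, from -0.25 for the 10 genes to 0.03 for N-glycan transfer, and the dashed line is the median of all tested genes at -0.01.

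Of these 8 calls, all but that of Eif2ak2 were lost when certain single libraries were removed. The calls over all tested genes fell as well. They went from 798 to 368, 311 and 383 without Rragc +/+ replicates 1, 2 and 4. Without Rragc S74N/+ replicates 4 and 5 they were 533 and 371, and without its replicates 1 and 3 they were 900 and 902. A lost call therefore does not show by itself that a gene rested on 1 library. Eif2ak2 passed in all 10 fits that left out 1 library, with an adjusted p of at most 0.027. Vcp passed in 7 of 10 and not without Rragc +/+ replicate 1 (adjusted p = 0.066) or 2 (0.069) or Rragc S74N/+ replicate 5 (0.059). Selenom passed in 5 of 10 fits and Srp72 and Atf6b in 4 of 10, and all 3 were lost without any one of Rragc +/+ replicates 1, 2 and 4 and Rragc S74N/+ replicates 4 and 5, with an adjusted p of up to 0.096. Atf6b was lost without Rragc +/+ replicate 3 as well (0.059), and Srp72 without Rragc S74N/+ replicate 2 (0.053). Kdelr2 passed only without Rragc S74N/+ replicate 1 or 3, Creb3l2 only without Rragc S74N/+ replicate 3, and Srp9 in 0 of 10, with an adjusted p of up to 0.130, 0.115 and 0.141. Each of the 8 kept its direction in every fit. Log2 fold changes ran from 0.37 to 0.43 for Vcp, 0.43 to 0.58 for Srp72 and -0.68 to -0.49 for Selenom. They ran from -0.99 to -0.65 for Atf6b and from -0.87 to -0.57 for Kdelr2. With scaling to equal library totals on all 10 libraries, Selenom, Creb3l2, Srp9 and Kdelr2 did not pass, and Atf6b was the only one that still passed with a fall.

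The cell types of the kidney were read from their markers. The 7 proximal tubule markers marked these samples as kidney, with sums of 29312 to 36593 normalized counts in Rragc +/+ and 26697 to 35534 in Rragc S74N/+ kidneys, and 1 of 7, Slc5a2, fell. Of 8 markers of other kidney segments 3 fell (Umod, Slc12a3 and Calb1), and the sums did not overlap, at 14113 to 16806 against 6691 to 11050. Markers of injured tubule rose in 3 of 6 (Havcr1, Lcn2 and Vcam1), of fibroblasts in 3 of 6 (Col1a1, Col1a2 and Pdgfra), of macrophages in 2 of 8 (C1qb and Lyz2) and of T cells in 1 of 3 (Trac). The sums were 395 to 543 against 497 to 881 for injured tubule, 805 to 1403 against 1313 to 2188 for fibroblasts, 589 to 766 against 894 to 1212 for macrophages and 10.9 to 48.0 against 53.0 to 84.0 for T cells. Havcr1 was at 0 in Rragc +/+ replicate 3 and Cd3e in Rragc +/+ replicate 5. For plasma cells, which express much of this pathway, 0 of the 7 tested markers beside Xbp1 passed in limma (3 of 7 were higher at an unadjusted p under 0.05), and their sums overlapped, at 2241 to 7465 against 3594 to 14489. The part of these cell types in the values of Hsp90b1 and the other 9 genes was not tested.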

How the data were processed

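Total RNA of whole kidneys (300 ng per library, RNA quality scores of 6.2 to 7 per the labels) was made into stranded libraries with an oligo-dT primed 3′ kit. The authors checked reads with FastQC 0.11.7, aligned them to GRCm39 with TopHat2 2.0.10, Bowtie 1.0.0 and SAMtools 0.1.19, and counted them on the sense strand with HTSeq 0.6.1. They deposited signal values in the form of normalized counts, read counts divided by a size factor per sample. The lowest gene mean was 4.372, and the rule that left out lower genes was not stated. A gene absent from the table was not analysed here.

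Genes with at least 5 normalized counts in at least 5 samples (13236 of 13299) were fitted on log2(normalized count + 1) with limma 3.58.1 in R 4.3.3 (genotype only, eBayes with a variance trend, two-sided, Benjamini-Hochberg over all tested genes, threshold 0.05). Because the values are not raw counts, this took the place of the count model of the study, and fold changes on this scale understate the change of low genes. In 8 of 10 columns 100% of values came out as whole reads (tolerance 0.1), and edgeR 4.0.16 and DESeq2 1.42.0 were run on these 8 as alternatives. Rragc +/+ replicate 5 and Rragc S74N/+ replicate 3 were left out of the count models because their steps were too close to 1 for that test. The 28 pairs of these 8 libraries differed by more than sampling noise (chi-square per degree of freedom at least 4.199). The fits were tested on simulated data.

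Groups came from the genotype labels, and replicate numbers follow the order of deposit. The 10 genes, the pathway lists and the marker lists were chosen with earlier results of these data known. Named are the 10 genes, the genes of each pathway list past the threshold, Ern1, Atf6, Eif2ak3, Atf4 and Ddit3, the 10 genes whose values most resembled the mean of the 10 over the kidneys, and markers that moved with a result. RefSeq promoter windows of GRCm38.p6 were searched for motifs on both strands, and protein sequences were not analysed here. Alternatives were other pseudocounts (0.5 and 5), filters (none, or a mean of at least 50), scalings (library totals, 75th percentiles), variance models, count models, a block for title numbers (below or above 200), and leaving out each replicate.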

Additional observations from a re-analysis of the deposited data

Results flagged for a closer look

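Among the 10 genes and the 8 pathway genes that passed the test, each group of 5 kidneys was searched for 1 kidney far from the rest by Dixon's test. This gave 3 of 36 groups. A nominal rate of 1 in 20 would give 1.8 of 36, but it assumes independent groups of unselected genes, and the 8 pathway genes were chosen because they passed. The share of outlying groups over all tested genes was not computed, so no excess can be read from the 3. All 3 were in Rragc S74N/+ replicate 1, at its low end, and that library was the lowest of the 10 samples in 24% of all tested genes. Hyou1 had 66.21 normalized counts in that kidney, against 160.9 to 191.4 in the other 4 of its group. Creb3l2 had 105.4 there, against 151.6 to 157.9. Srp9 had 55.02, against 75.98 to 79.67.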

How the results depend on the processing

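No paired analysis was possible because the labels carry no replicate numbers and replicates were numbered by order of deposit. Over all genes 798 passed, against 391 without the variance trend, 1402 in DESeq2 and 311 to 902 with 1 library left out. With scaling to equal library totals 943 passed, of which 76.1% were higher, against 57.3%. Of the 10 genes 1 passed, against 0 without the variance trend and 0 to 1 with 1 library left out, and 1 under each of the other 11 alternatives. Of the 132 pathway genes 8 passed, against 1 without the variance trend, 12 in DESeq2 (5 higher and 7 lower) and 1 to 9 with 1 library left out (1 without Rragc +/+ replicate 1 or 2, 2 without Rragc +/+ replicate 4 or Rragc S74N/+ replicate 4 or 5). Counts per list moved as follows, with the range over left-out libraries at the end. For other chaperones (1) there were 0 with library totals, 0 without the variance trend, 2 in edgeR and 2 in DESeq2, and 0 to 2. For sensors (2) there were 1 with library totals, 0 without the trend, 1 in edgeR and 1 in limma on the same 8 libraries, and 0 to 2. For degradation (1) there were 2 with library totals, 0 without the trend and 2 in DESeq2, and 0 to 2. For translocation (2) there were 1 with a pseudocount of 0.5, 0 without the trend, 1 with the title block, 1 in edgeR and 1 in limma on 8 libraries, and 0 to 1. With library totals and in DESeq2 there were again 2, but both were higher, so that Srp9 was not among them. For N-glycan transfer (0) there was 1 with library totals, in edgeR, in DESeq2 and in limma on 8 libraries, and 0 to 1. For vesicle export (1) there were 0 with library totals, without the trend, with the title block, in edgeR and in limma on 8 libraries, 2 in DESeq2, and 0 to 2. The PERK and ATF4 arm kept 1 throughout, which was Eif2ak2, the interferon-induced kinase that is not a sensor of the endoplasmic reticulum.

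The sign of Pdia4 turned to 0.078 with library totals, 0.017 with 75th percentiles, 0.063 in edgeR, 0.053 in DESeq2 and 0.061 in limma on 8 libraries, and that of Pdia6 to 0.060, 0.051, 0.042 and 0.058 with the same settings other than 75th percentiles. With 1 library left out Pdia4 ran from -0.034 to 0.074 and Pdia6 from -0.096 to 0.071. The other 8 genes kept their direction under every alternative that tested them, and beside Hsp90b1 none of the 10 passed (Sdf2l1 was not tested with a mean of at least 50). With 1 library left out Eif2ak3 ran from -0.060 to 0.30, Atf4 from -0.12 to 0.19 and Ddit3 from -0.13 to 0.28. The cause of these changes was not tested. Limma on the 8 libraries was added after seeing the data. Depth limits Sdf2l1 and Dnajb9 most, with as few as 20 and 39 reads in a library.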

Other observations

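After removal of the genotype means, the genes outside the 10 whose log2 values were most like the mean of the 10 over the 10 kidneys were Gm10040, Timd2, Clic5, Creb3l1, Slc22a22, Tfb1m, Psma3, St7, Fam151b and Cep95, with Pearson r from 0.86 for Cep95 to 0.93 for Gm10040. Creb3l1, which encodes a membrane-bound factor cut in the Golgi apparatus, was the 1 gene of the pathway lists among them, with an r of 0.88. These r were picked as the highest of all tested genes over 10 points and have no p. Without Rragc S74N/+ replicate 1, 4 of these 10 genes were still among the 10 highest and Creb3l1 was not, and r was 0.94 for Timd2, 0.92 for Gm10040 and 0.85 for Creb3l1.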
